A study of Mus musculus with 2 samples.

Results

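The genes described here build and run the DNA replication machinery, from the complex that marks origins to the enzymes that copy and repackage DNA at the fork. They were taken by gene symbol from a fixed list of 49 names, and all 49 were found among the 55414 gene identifiers of the count tables. All 49 were also among the 14871 genes measured with a mean CPM (reads scaled to library size) of 1 or more. The cells were R1E mouse embryonic stem cells of wild-type genotype. They grew in medium with serum and LIF, the cytokine that holds such cells in the undifferentiated state. One group was left untreated and labelled 0 h, and the other received Adriamycin at 0.5 µM over 8 h. Adriamycin (doxorubicin) traps topoisomerase II on DNA and leaves breaks. Each group had 1 library, so no test between the groups was possible, and the untreated cells have no library at 8 h. A difference between cultures, or an effect of time in culture, cannot be told apart from that of the drug. In RNA from a whole culture, fewer cells in a phase of the cycle and less RNA per cell cannot be told apart either.

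Replication is prepared in G1, when the origin recognition complex (ORC) with Cdc6 and Cdt1 loads rings of the MCM2-7 helicase onto DNA. In S phase the kinase Cdc7 with its subunit Dbf4 lets Cdc45 and the GINS complex join the ring, which opens the fork. DNA polymerases, the sliding clamp and its loader then copy the strands, while geminin (Gmnn) binds Cdt1 and prevents reloading. Many of these genes are known targets of the E2F transcription factors, and embryonic stem cells, whose cycle is short and rich in S phase, express them at high levels.

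The libraries held 41820999 reads (untreated) and 38561292 reads (Adriamycin). Summed over the 49 genes, 394457 and 316735 reads were counted, which were 0.943% and 0.821% of the totals. The median gene of the list had 4323 and 3701 reads, and the lowest, Fen1, 82 and 130. The stem cell genes Pou5f1 (34285 and 24502 reads), Sox2 (17762 and 13563) and Nanog (23059 and 7436) were abundant in both libraries. Of 10 stem cell markers 6 were at least 2-fold lower with Adriamycin (Nanog, Zfp42, Tfcp2l1, Utf1, Esrrb and Tdgf1), and their summed level was 7365 CPM untreated and 4092 CPM with Adriamycin. Of 4 mesoderm markers T (16 and 89 reads) and Mesp1 (13 and 206 reads) were higher, Hand1 and Kdr were not, and the sum was 7.92 and 12.3 CPM. Of the fibroblast markers listed for feeder cells, 4 of 8 (Col3a1, Dcn, Lum and Postn) had 0 reads in both, where 0 allows up to 3 reads per library. In that list Col1a1 had 214 and 1295 reads and Pdgfrb 636 and 971, while Col1a2 had 59 and 62 and Thy1 484 and 448. The summed level was 35.0 CPM untreated and 68.5 CPM with Adriamycin, and only Col1a1 was called higher. The 5 endoderm markers summed to 52.2 and 50.2 CPM, with 0 of 4 measured past 2-fold. The 4 neuroectoderm markers summed to 150 and 78.8 CPM, and of 3 measured only Pax6 (151 and 25 reads) was past 2-fold, in the lower direction. The part of these marker lists in the results below was not tested. The p53 targets Mdm2 (5110 and 37286 reads) and Cdkn1a (2289 and 7240 reads), known to respond to DNA breaks, were 7.16-fold and 3.10-fold higher in the Adriamycin library.

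As a group the replication genes stood slightly lower in the Adriamycin library, and within a narrow range. Log2 ratios set the Adriamycin library over the untreated one after scaling by TMM factors, and a gene was called higher or lower at 2-fold or more. Only Dbf4 was called lower, 1 of 49 genes, where 6.95% of all measured genes were called lower. None of the 49 was called higher, where 17.0% of all measured genes were. Of the measured genes, 5023 lay between 1 and 10 CPM, where the upper quartile of the log2 ratio was 1.17. Few genes of the list are that low, so the contrast with 17.0% is partly one of abundance. The 48 genes other than Dbf4 differed by less than 2-fold. At 1.5-fold or more, 7 genes were lower (Dbf4, Gmnn, Pcna, Orc3, Pold2, Rpa1 and Lig1) against 18.9% of measured genes, and 1 was higher (Fen1) against 25.7%. Their median log2 ratio was -0.29, with quartiles at -0.47 and -0.05. The 14871 measured genes had a median of -0.03 and quartiles at -0.46 and 0.61. With TMM the log2 ratio was below 0 for 40 of the 49 genes (51.6% of measured genes). It was below 0 for 31 with total counts and for 46 with upper-quartile factors, where the share of measured genes was not computed. Total counts moved the median of all measured genes by 0.15 and upper-quartile factors by -0.12. Relative to that median, the replication genes stood at -0.26. A scaling shifts all genes alike, so this difference is fixed by construction and is no sign of stability.

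Abundant genes were lower in general, so the list is also set beside genes of like abundance. Measured genes with 100 CPM or more on average had a median log2 ratio of -0.31, and the 25 replication genes in that band had -0.41. Their upper quartiles were 0.09 and -0.12. Between 10 and 100 CPM, the medians were -0.06 for measured genes and -0.24 for 23 replication genes, and the upper quartiles 0.44 and -0.01. Only Fen1 lay below 10 CPM. Across the 49 genes, which share the same pair of libraries, Spearman's rho between mean CPM and log2 ratio was -0.368. Against the length of the gene on the chromosome it was -0.14. Genes of the list spanning up to 10 kb had a median of 0.05 (8 genes), those from 10 to 30 kb -0.29 (26 genes) and longer ones -0.31 (15 genes), against -0.03 in each of these classes for measured genes.

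**Figure D1:**
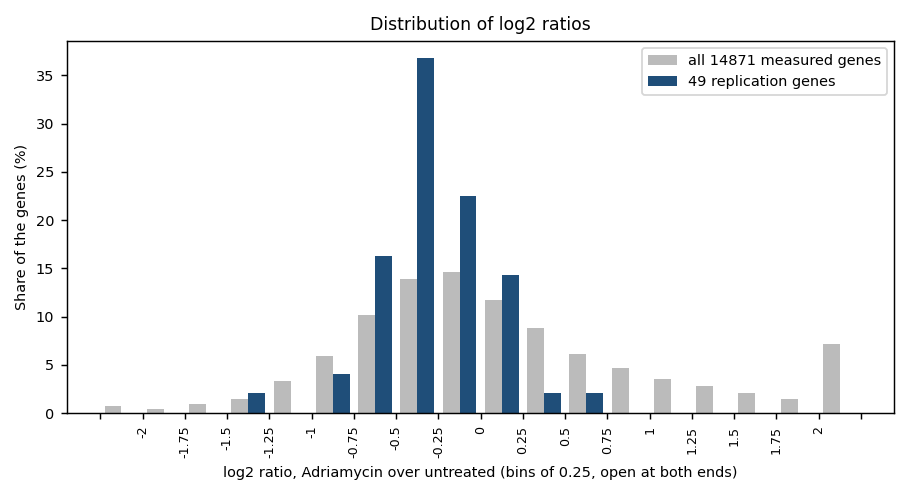
Share of genes (y axis, percent) in bins of the log2 ratio, Adriamycin over untreated (x axis), for all 14871 measured genes in grey and the 49 replication genes in blue. The replication genes gather between -0.75 and 0.25, and none lies at or above 1, where the grey bars have a long upper tail.

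The interval in parentheses after a log2 ratio is a 95% counting interval. It holds counting error only, not the spread between cultures. They lay wholly below 0 for 36 of the 49 genes (42.5% of measured genes) and wholly above 0 for 6 (39.6% of measured genes), and 7 included 0. With counts divided by 2, since mates of a pair may have been counted separately, 12 included 0.

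**Figure D2:**
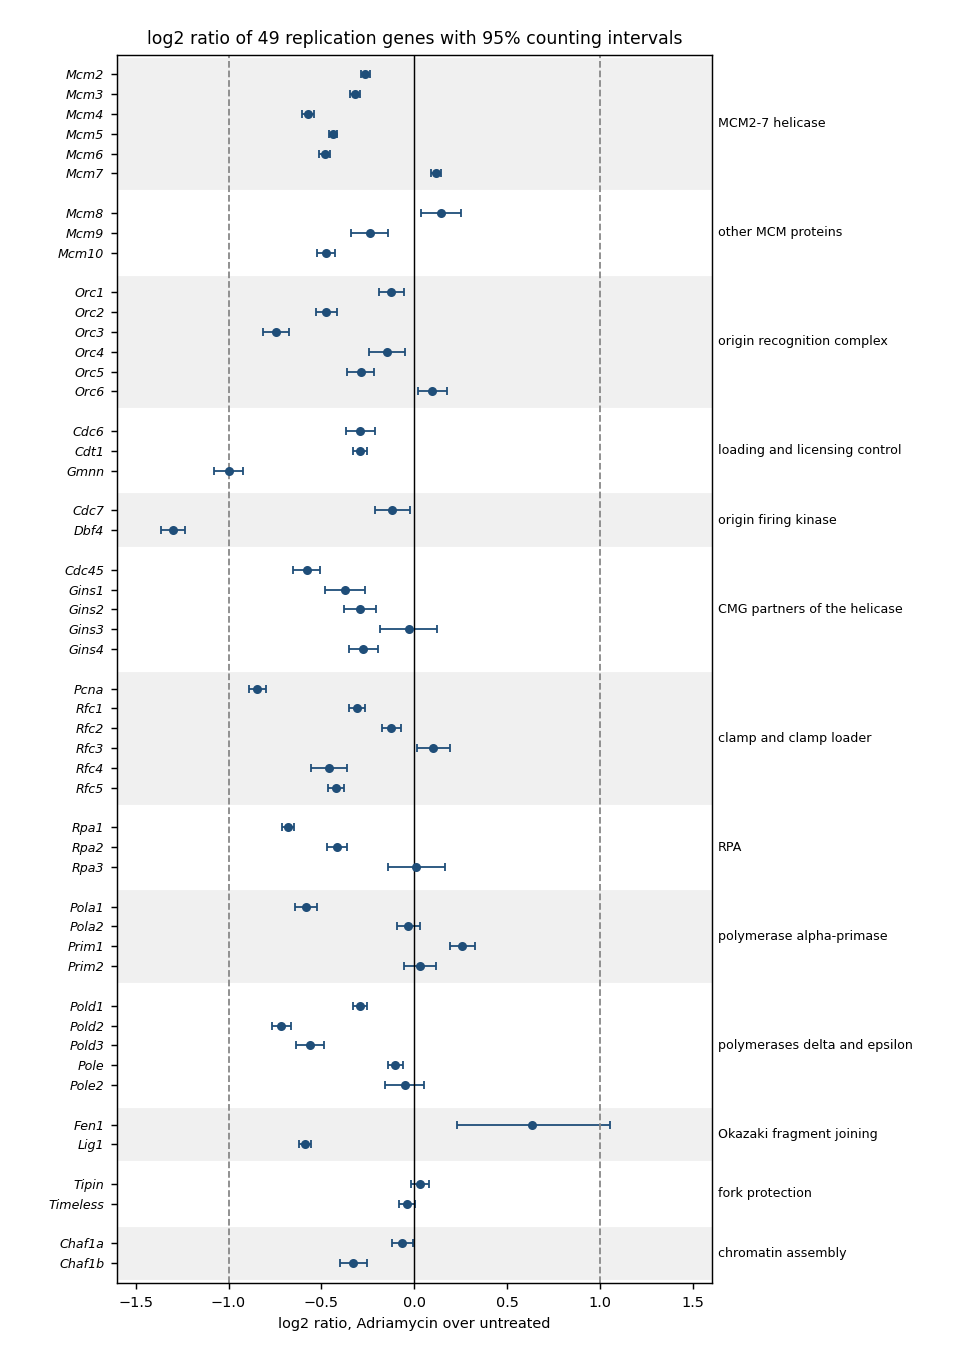
The log2 ratio of each of the 49 genes (x axis, Adriamycin over untreated), ordered by role, with its 95% counting interval as a bar and dashed lines at 2-fold. Dbf4 alone lies clearly left of the lower line, Gmnn lies on it, and Fen1 has the widest interval.

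The recognition of origins is the task of ORC, whose subunits Orc1 to Orc5 form a ring around DNA and which Orc6 joins. Orc3, a core subunit (ENSMUSG00000040044, chromosome 4, 34570796 to 34614944, GRCm39), had 4323 reads untreated and 2633 with Adriamycin, a log2 ratio of -0.74 (-0.81 to -0.67). Orc2 had 5673 and 4167 reads, for a log2 ratio of -0.47, and 29.8% of its exon length is shared with Nif3l1 on the opposite strand. Orc5 followed at -0.29, Orc4 at -0.15 and Orc1, an ATPase subunit, at -0.12. Orc6 had 2582 and 2813 reads, for a log2 ratio of 0.10 (0.02 to 0.17), which was below 0 with upper-quartile factors. With counts divided by 2 the interval of Orc6 included 0. The 6 subunits thus spread from 1.67-fold lower to 1.07-fold higher, and the order of their levels was partly rearranged. Per exon length, Orc2 had the highest untreated level with 37.0 RPKM (reads scaled to exon length and library size) and Orc4 the lowest with 6.24. With Adriamycin Orc6 was highest with 28.1, ahead of Orc2 with 26.6. Reads on shared bases were not counted, and Orc2 shares 29.8% of its exon length against 6.93% for Orc6. The level of Orc2 is thus the more understated, and Orc6 cannot be said to pass it.

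Of the loading factors, Cdc6 and Cdt1 had the same small difference, and geminin a larger one. Cdc6, the ATPase that joins ORC, had 3078 and 2566 reads, for a log2 ratio of -0.29 (-0.37 to -0.21). Cdt1, which brings the helicase to ORC, had 13076 and 10879 reads, also -0.29 (-0.33 to -0.26). Gmnn, the inhibitor of Cdt1 (ENSMUSG00000006715, chromosome 13, 24935828 to 24945906, GRCm39), had 3912 and 1995 reads. Its log2 ratio was -0.999 (-1.08 to -0.92), just short of the 2-fold call, which it passed with upper-quartile factors. The level of Cdt1 per exon length was 1.56 times that of Gmnn in the untreated library (1.505 to 1.617) and 2.54 times in the Adriamycin library (2.425 to 2.670). The interval of this ratio in one library thus did not reach that in the other.

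The MCM2-7 helicase had the highest median level of the role groups, and 5 of its 6 subunits stood lower with Adriamycin. Together its 6 genes took 160983 reads untreated and 132899 with Adriamycin, which were 40.8% and 42.0% of the reads of the list. Mcm4 had 18439 and 12656 reads, for a log2 ratio of -0.57 (-0.60 to -0.54). Mcm6 (22685 and 16545 reads) stood at -0.48, Mcm5 (36064 and 27127) at -0.44, Mcm3 (26492 and 21637) at -0.32 and Mcm2 (32874 and 27923) at -0.26. These 5 stood below 0 under each scaling tried. Mcm7 was the exception, with 24429 and 27011 reads, or a log2 ratio of 0.12 (0.09 to 0.14), which was below 0 with upper-quartile factors. Per exon length, the ratio of Mcm7 to Mcm4 was 1.07 untreated (1.05 to 1.10) and 1.73 with Adriamycin (1.69 to 1.77). These are the subunits with the highest and the lowest log2 ratio of the 6. Their ratio thus restates the widest gap in the ring and is no separate result. Mcm7 (chromosome 5, 138162845 to 138170684, GRCm39) shares 12.6% of its exon length with other genes, among them Ap4m1 and Cops6 on the opposite strand and the microRNAs Mir25 and Mir93 that it hosts. The subunits of the ring stand in equal numbers in the protein complex, and their transcript levels spanned 119 to 227 RPKM untreated, 1.91-fold from lowest to highest. With Adriamycin they spanned 87.0 to 168, 1.93-fold.

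Other MCM proteins had far lower levels. Mcm10, which helps to activate the loaded helicase, had 8001 and 5871 reads, for a log2 ratio of -0.47 (-0.52 to -0.43). Mcm8 and Mcm9, partners in a helicase of recombination repair, had log2 ratios of 0.15 (1318 and 1486 reads) and -0.24 (1744 and 1504 reads). Per exon length Mcm9 had 4.81 and 4.07 RPKM, and only Fen1 had a lower level in the list.

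The subunits of the kinase that fires origins stood far apart. Dbf4, the regulatory subunit (ENSMUSG00000002297, chromosome 5, 8446973 to 8472716, GRCm39), had 6927 reads untreated and 2871 with Adriamycin. That was 2.46-fold lower, a log2 ratio of -1.30 (-1.36 to -1.24), and it kept its call under each scaling, pseudocount and filter tried. Cdc7, the catalytic subunit, had 1866 and 1751 reads, for a log2 ratio of -0.12 (-0.21 to -0.02). With counts divided by 2 the interval of Cdc7 included 0. Per exon length the level of Cdc7 was 0.562 times that of Dbf4 untreated (0.534 to 0.592) and 1.27 times with Adriamycin (1.199 to 1.351). The order of the subunits in each library rests on the annotated exon lengths (4183 bases for Cdc7, 8728 for Dbf4), which may differ from those of the transcripts present. In reads Dbf4 stood above Cdc7 in both libraries, so only the shift of the ratio is independent of length. Neither gene shares exon bases with another gene of the annotation.

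Cdc45 and the GINS proteins complete the active helicase. Cdc45 had 3834 and 2617 reads, for a log2 ratio of -0.58 (-0.65 to -0.51). Gins1 (1588 and 1249 reads) stood at -0.37, Gins2 (2394 and 1993) at -0.29 and Gins4 (2885 and 2432) at -0.27. Gins3 had 695 and 694 reads, for a log2 ratio of -0.03 whose interval included 0. The GINS complex holds its subunits in equal numbers, and their levels ran from 6.45 (Gins3) to 53.8 (Gins4) RPKM untreated. Exons of Gse1 on the opposite strand cover 67.3% of the exon length of Gins2, so its count misses reads and its level is understated.

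At the fork the sliding clamp differed more than its loader. Pcna, the clamp that tethers polymerases (ENSMUSG00000027342, chromosome 2, 132091082 to 132095234, GRCm39), had 10438 and 5927 reads. That was 1.80-fold lower, a log2 ratio of -0.84 (-0.89 to -0.80). Reads that also map to pseudogene copies of Pcna may not have been counted. Of the loader subunits, Rfc4 stood at -0.46, Rfc5 at -0.42, Rfc1, the large subunit, at -0.31 and Rfc2 at -0.12. Rfc3 had 1985 and 2171 reads, for a log2 ratio of 0.10 (0.01 to 0.19), which was below 0 with upper-quartile factors. With counts divided by 2 the interval of Rfc3 included 0.

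RPA, which coats single-stranded DNA, showed a graded pattern over its subunits. Rpa1, the large subunit, had 19624 and 12480 reads, for a log2 ratio of -0.68 (-0.71 to -0.65). Rpa2 had 6393 and 4892 reads, for a log2 ratio of -0.41. Rpa3, the small subunit, had 701 and 720 reads, for a log2 ratio of 0.01 whose interval included 0.

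The polymerases split by complex and by subunit. In polymerase alpha-primase, which starts new strands, the catalytic subunit Pola1 had 5439 and 3701 reads, for a log2 ratio of -0.58 (-0.64 to -0.52). Its partner Pola2 (4168 and 4154 reads) stood at -0.03. Prim1, the catalytic subunit of primase, had 3099 and 3778 reads, for a log2 ratio of 0.26 (0.19 to 0.33), and Prim2 had 2099 and 2185, a log2 ratio of 0.03. Prim1 stood above 0 under each scaling tried, as did Mcm8 and Fen1. With counts divided by 2, however, the interval of Mcm8 included 0, and the Fen1 count says little, as told below. In polymerase delta, the lagging strand enzyme, the accessory subunit Pold2 had 8153 and 5062 reads, for a log2 ratio of -0.72 (-0.77 to -0.66). Pold3 (3515 and 2430) stood at -0.56 and the catalytic subunit Pold1 (12020 and 10012) at -0.29. The leading strand polymerase epsilon differed less, with Pole at -0.10 (10034 and 9530 reads) and Pole2 at -0.05 (1450 and 1425 reads). These 3 delta subunits stood below both of these epsilon subunits, with no overlap of intervals. That does not hold for each subunit of the enzymes, since Pold4 of delta, outside the list of 49, stood at 1.08, above Pole3 (0.13) and Pole4 (-0.0015) of epsilon.

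Joining of Okazaki fragments needs the flap nuclease Fen1 and the ligase Lig1. Lig1 had 18861 and 12786 reads, for a log2 ratio of -0.59 (-0.62 to -0.56). Fen1 had 82 and 130 reads, for a log2 ratio of 0.63 (0.23 to 1.05). Its count says little about the gene, because 84.2% of its exon length (chromosome 19, 10176496 to 10181533, GRCm39) is shared with Gm10143 and Tmem258 on the opposite strand. Reads on bases of more than 1 gene were not counted, as the headers show no option for it. The fork protection partners Timeless (8717 and 8635 reads) and Tipin (7115 and 7407 reads), which keep the helicase and polymerases together, had log2 ratios of -0.04 and 0.03, and both intervals included 0. Chaf1a and Chaf1b, subunits of the CAF-1 chaperone that places histones on new DNA, stood at -0.06 (5336 and 5202 reads) and -0.33 (3213 and 2610 reads). Chaf1a shares 52.5% of its exon length with Ubxn6. By role, the median log2 ratio was lowest for the origin firing kinase (-0.71, 2 genes) and RPA (-0.41, 3 genes), and 12 of 13 role groups had a median below 0 (10 with total counts and 10 with DESeq2 size factors). The other was Okazaki fragment joining, which rests on the Fen1 count.

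**Figure D3:**
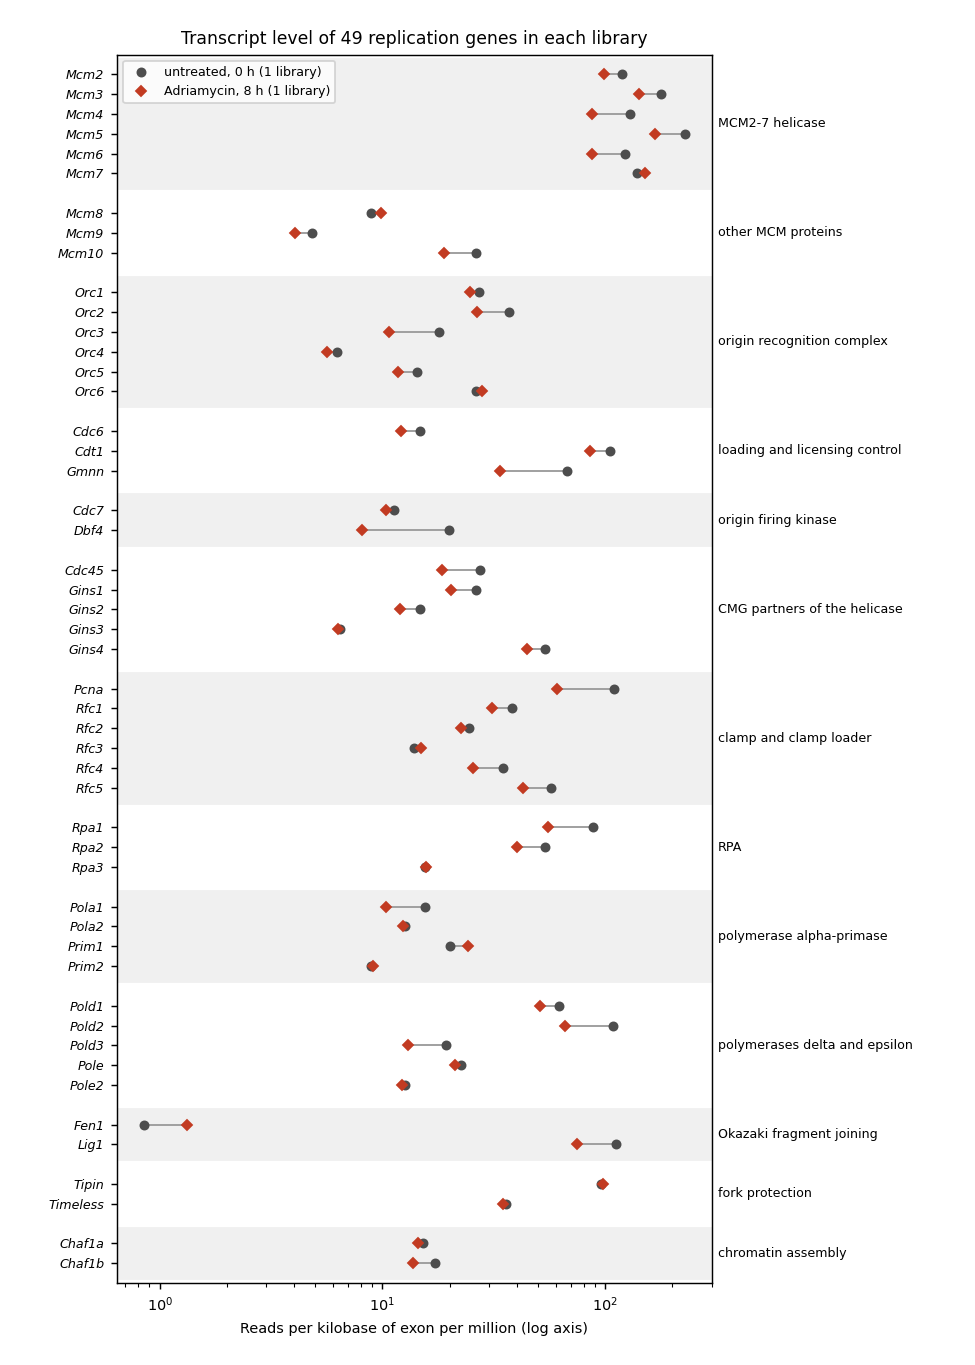
Transcript level of each gene in RPKM (x axis, log scale), ordered by role, with circles for the untreated and diamonds for the Adriamycin library. The 6 MCM2-7 genes lie together between 87.0 and 227, most other genes lie lower, and the long lines of Dbf4, Gmnn and Pcna stand out from the short ones of Tipin, Timeless and Gins3.

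Other replication genes, listed beside the 49, had a like median of -0.28 over 31 measured of 32. At 2-fold, 1 was called lower (3.23%, against 6.95% of measured genes) and 1 higher (3.23%, against 17.0%). Rif1, which controls when origins fire, had 18692 and 8456 reads, for a log2 ratio of -1.17 (-1.21 to -1.14). Pold4, the smallest subunit of polymerase delta, had 117 and 252 reads, for a log2 ratio of 1.08 (0.76 to 1.41), and 24.6% of its exon length is shared with other genes. The histone chaperone Nasp had 31962 and 16452 reads, for a log2 ratio of -0.99. Uhrf1, which guides DNA methylation to new strands, stood at -0.59, the FACT chaperone subunits Supt16 and Ssrp1 at -0.55 and -0.45, and the MCM binding protein Mcmbp at -0.55. Topbp1, which helps to assemble the helicase, stood at -0.02, and the maintenance methyltransferase Dnmt1 at 0.17. Of these 31 genes, 6 were lower by 1.5-fold or more (19.4%), near the 18.9% of measured genes. By the same fold 3 were higher (9.68%), against 25.7% of measured genes.

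Some of the 49 genes start close to the start of a gene on the opposite strand. Whether the genes of a pair stand back to back or overlap was not part of the search. The share of all genes with such a neighbour was not computed. Within 1 kb on the opposite strand, 23 such starts were found, of which 16 belonged to measured genes, each beside a different replication gene. These partners had a median log2 ratio of 0.06, and in 14 of the 16 pairs the partner had the higher log2 ratio. On average 64.5% of all measured genes, of any abundance, stood above the replication gene of a pair. Most partners had fewer untreated reads than the replication gene beside them. The median log2 ratio was 0.31 for measured genes from 1 to 10 CPM and -0.31 for those with 100 CPM or more. The pairs were not matched for abundance, so this contrast cannot be told apart from one of abundance. The counting intervals of the 2 genes overlapped for Mcm7 and Ap4m1, Orc4 and Mbd5, Rfc5 and Gm15728, and Fen1 and Tmem258. Beside Mcm4, at 466 bases, starts Prkdc, which encodes the DNA-dependent protein kinase of end joining. Prkdc had 1982 and 2038 reads, for a log2 ratio of 0.01, against -0.57 for Mcm4. Beside Dbf4, at 134 bases, Slc25a40, a mitochondrial carrier gene named after its values were seen, had 1092 and 1433 reads, for a log2 ratio of 0.36 (0.25 to 0.48). Ufd1 beside Cdc45 stood at -0.02, Abhd12 beside Gins1 at 0.11, Prpf38a beside Orc1 at 0.17 and Rars2 beside Orc3 at -0.36. The only partner called higher was Gm15834 beside Orc2, on 21 and 65 reads. It lay below 1 CPM in the untreated library and passed the filter only through the Adriamycin library, which favours a higher ratio. The other 2 pairs ran the other way. Trmt6, a tRNA methyltransferase gene 86 bases from Mcm8, had 3966 and 2374 reads, for a log2 ratio of -0.77 (-0.84 to -0.69). Vps35, a retromer gene beside Orc6, had 10738 and 6470 reads, for a log2 ratio of -0.76. Tmem258 beside Fen1 stood at 0.85 (1619 and 2975 reads). Exons of the pair overlap for Orc6 and Vps35, Cdc45 and Ufd1, Mcm7 and Ap4m1, Orc4 and Mbd5, and Fen1 and Tmem258.

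**Figure D4:**
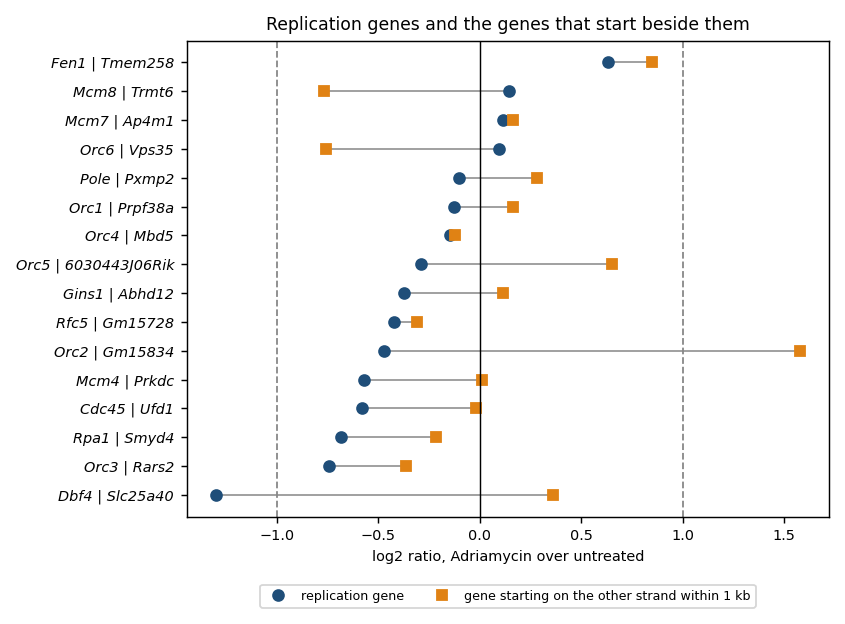
The log2 ratio (x axis, Adriamycin over untreated) of 16 replication genes (circles) and of the measured gene that starts within 1 kb on the other strand (squares), joined by a line for each pair, with dashed lines at 2-fold. In 14 pairs the square lies to the right of the circle, and Mcm8 and Orc6 are the exceptions.

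Promoter sequences of 40 of the 49 genes were found in a RefSeq table (build GRCm38.p6) that holds the 250 bases before each start and 50 after it. The letters of the E2F site were searched on both strands as TTTCCCGC, TTTCGCGC, TTTGCCGC and TTTGGCGC. They were found in 16 of these 40 genes, against 2.60% of all 27025 genes in the table and 4.75% of 10884 measured ones. The letters CCAAT, known as the site of NF-Y, were found in 60.0% of the 40 genes, 41.1% of all genes and 43.0% of measured ones. TTTGAA, the core of the cell cycle element CHR, was found in 17.5% of the 40 genes, 20.2% of all genes and 14.1% of measured ones. E2F letters share bases with CCAAT in Mcm7 and with each other in Mcm5 and Mcm6. A match is a stretch of letters, not a bound site. The stretches around the match nearest the start are shown for 8 genes of origin licensing, since these are the genes that must act together in G1. They read 5′ to 3′ on the strand of the gene, with E2F letters of either strand in capitals.
Mcm3 (chr1:20820266-20820313, minus strand): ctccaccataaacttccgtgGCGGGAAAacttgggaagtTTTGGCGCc
Mcm5 (chr8:75109340-75109387, plus strand): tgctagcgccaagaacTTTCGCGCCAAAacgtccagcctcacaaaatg
Mcm6 (chr1:128359725-128359772, minus strand): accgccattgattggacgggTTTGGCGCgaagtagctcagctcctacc
Mcm7 (chr5:138171840-138171887, minus strand): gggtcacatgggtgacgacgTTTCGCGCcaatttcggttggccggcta
Orc1 (chr4:108579407-108579454, plus strand): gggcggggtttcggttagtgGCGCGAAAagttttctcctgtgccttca
Orc3 (chr4:34614956-34615003, minus strand): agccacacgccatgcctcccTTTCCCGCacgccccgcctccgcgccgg
Cdc6 (chr11:98907993-98908040, plus strand): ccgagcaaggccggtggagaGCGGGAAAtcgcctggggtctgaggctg
Cdt1 (chr8:122568027-122568064, plus strand): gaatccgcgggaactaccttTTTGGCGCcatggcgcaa

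The matches lay near the start in 13 of the 16 genes, beginning at positions from -47 to 40, where 1 is the first base of the gene. The exceptions were Mcm5, at -149, and Cdc6 and Pola1, both at -138. More than 1 match was found in 5 genes, namely Mcm3, Mcm5, Mcm6, Mcm7 and Rfc3. The median log2 ratio was -0.29 for the 16 genes that hold the letters and -0.30 for the 24 that do not. Over the measured genes of the table, the 517 with the letters had a median of -0.17 and the 10367 without had -0.00985. Mcm7 and Mcm4, the subunits of the ring that stood farthest apart, could not be compared, since Mcm4 has no entry in the table.

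**Figure D5:**
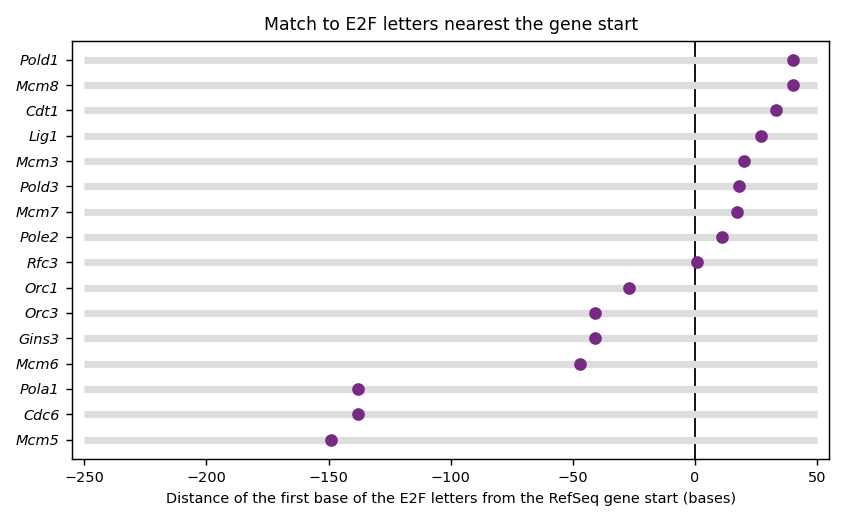
Distance in bases from the RefSeq gene start (x axis, the start at the black line) of the first base of the E2F match nearest the start, for the 16 genes with a match, with grey bars for the searched window. In 13 genes the match lies close to the start, and in Mcm5, Cdc6 and Pola1 it lies further upstream.

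The promoters of the 2 lowest genes with an entry, Dbf4 and Pcna, held no E2F letters in this window. That of Dbf4 held TTTGAA in reverse, beginning at position -3, and that of Pcna held CCAAT in reverse, beginning at -87. Gmnn has no entry. Both are shown whole, with these letters in capitals.
Dbf4 (chr5:8422667-8422966, minus strand): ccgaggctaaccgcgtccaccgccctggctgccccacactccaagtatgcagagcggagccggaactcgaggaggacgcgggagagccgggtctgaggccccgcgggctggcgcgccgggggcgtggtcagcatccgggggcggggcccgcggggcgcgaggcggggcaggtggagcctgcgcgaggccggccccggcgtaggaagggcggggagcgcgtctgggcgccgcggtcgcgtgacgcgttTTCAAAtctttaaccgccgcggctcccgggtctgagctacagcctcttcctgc
Pcna (chr2:132253131-132253430, minus strand): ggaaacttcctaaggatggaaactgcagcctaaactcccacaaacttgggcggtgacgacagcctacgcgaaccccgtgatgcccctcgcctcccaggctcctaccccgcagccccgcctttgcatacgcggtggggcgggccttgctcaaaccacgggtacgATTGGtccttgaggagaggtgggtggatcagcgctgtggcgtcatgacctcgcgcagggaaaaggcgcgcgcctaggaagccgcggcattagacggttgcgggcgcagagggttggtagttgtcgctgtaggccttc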

How the data were processed

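Each library has 1 deposited table of raw counts for each gene. Per the file headers, the authors counted paired-end reads with featureCounts 2.0.3 over exons of annotation release 105 on GRCm39, keeping pairs with both ends aligned, with no option for strand, for reads on several genes or places, or for counting pairs as 1 fragment. Per the submitters' processing notes, Trim Galore 0.3.4 and HISAT2 2.0.4 were used, and the notes also give featureCounts 1.6.0, mm9 and mm10, unlike the headers. Symbols came from GENCODE M21 by identifier (52081 matched, 3333 not). Library sizes were scaled with TMM (edgeR 4.0.16, R 4.3.3), with factors of 0.951 and 1.05. CPM and log2 ratios, with a pseudocount of 0.5 read, were computed here in Python 3.11.15. Measured genes are those that reach 1 CPM on average. Counting intervals are exact conditional binomial (Clopper-Pearson) at 95%, and PCR copies and mates make them too narrow. The script was tested on simulated counts. Promoters and their positions are from RefSeq on GRCm38.p6, and gene positions are those of the tables on GRCm39. The genes, lists and role groups were chosen with earlier results of these data known. Named were all 49 genes, and of the other replication genes and partners those past 2-fold and the 8 with most untreated reads. Alternatives were total counts, upper-quartile and DESeq2 1.42.0 size factors, a pseudocount of 5 reads, no filter, 1.5-fold, and leaving out genes with shared exons.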

Additional observations from a re-analysis of the deposited data

How the results depend on the processing

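No paired analysis was possible because each group has 1 library and no replicate number, and for the same reason no library could be left out. Results shifted with the scaling. The median log2 ratio of the 49 genes was -0.15 on total counts and -0.41 on upper-quartile factors, and that of the other replication genes -0.14 and -0.42. With upper-quartile factors 2 of the 49 genes were lower by 2-fold (Gmnn and Dbf4), and of the other replication genes 3 were lower and 0 higher. The share of measured genes called with these factors was not computed. With the call set at 1.5-fold, 7 of the 49 were lower and 1 higher, and of the other replication genes 6 were lower and 3 higher. Of all measured genes, 18.9% were lower and 25.7% higher at that fold. Without the 18 genes whose exons overlap another gene, 25 of 31 had a log2 ratio below 0. The count is smaller because fewer genes remain, and their median was -0.31. Without the 3 genes that share most of their exon length, a choice made after seeing the data, 38 of 46 were below 0 and the median was -0.29. Total counts brought 9 genes from below to above 0 (Orc1, Cdc7, Gins3, Rfc2, Pola2, Pole, Pole2, Timeless and Chaf1a), and upper-quartile factors brought 6 below 0 (Mcm7, Orc6, Rfc3, Rpa3, Prim2 and Tipin). DESeq2 size factors, a pseudocount of 5 reads and no filter left the counts of genes lower or higher by 2-fold as they were. Counting intervals say nothing of the spread between cultures, which limits every value here.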
